A study of Rattus norvegicus with 32 samples.

Results

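A set of 10 genes that neurons switch on or raise after activity was followed through RNA sequencing of the rat nucleus accumbens shell: Arc, Npas4, Homer1, Dusp1, Dusp6, Ier2, Btg2, Nptx2, Klf4 and Sik1. Members were chosen by gene symbol, and all 10 were found among the 34322 rows of the count table. All 10 also passed the filter on low counts that left 17059 genes for testing. The 32 libraries formed 4 groups of 8, all from rats labelled wild type that had been shocked in fear conditioning. In 2 groups the shock had been paired with a neutral cue and in the others with a lemon odour, called the anxiety cue here. One group of each pair received vehicle and the other cannabidiol (CBD, a non-intoxicating compound of cannabis) ahead of tests of anxiety in which the cue was present. Tissue was collected after the last shock, so every group, the controls included, had been shocked. Strain, sex, age and CBD dose were not given in the sources used here.

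The nucleus accumbens shell is part of the ventral striatum, and most of its neurons are GABAergic medium spiny neurons that receive glutamate and dopamine input. Synaptic activity lets calcium into these cells and engages cyclic AMP and mitogen-activated protein (MAP) kinase signalling, which turn on primary response genes within minutes. The products of these genes include transcription factors, proteins that reshape synapses, and enzymes that damp the kinases that induced them. Arc, Homer1 and Nptx2 act at the synapse: Arc promotes removal of AMPA receptors, Homer1 encodes a postsynaptic scaffold whose short form is induced by activity, and Nptx2 encodes a secreted pentraxin that clusters AMPA receptors. Npas4 and Klf4 encode transcription factors. Dusp1 and Dusp6 encode phosphatases that switch off MAP kinases, and Sik1 encodes a kinase that restrains the coactivators of the cyclic AMP response factor CREB. Ier2 encodes a nuclear immediate-early protein and Btg2 an antiproliferative coregulator.

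The sequence just before the start of 4 of the genes is shown because many primary response genes carry a cyclic AMP response element, TGACGTCA, the site bound by CREB. RefSeq promoter sequences of the rat build GRCr8, from 250 bases before to 50 after the start, matched 9 of the 10 members (not Arc). The full element was present in 3 of the 9 (Dusp1, Ier2 and Btg2), against 612 of 33469 promoters of that length (1.83%). The core, TGACG on either strand, which lies inside every full element, was in 5 of the 9, the other two being Nptx2 and Sik1, against 21.2% of all promoters. The CArG box bound by serum response factor was in 0 of the 9 windows and in 1.64% of all promoters. Among the matched genes of a wider list of activity-regulated genes, 8 of 52 held the full element, 29 of 52 the core and 5 of 52 the CArG box. These counts describe letters in a window and not binding. The 250 bases before the start are given below 5′ to 3′ on the gene's strand, with the full element or core in capitals. Dusp1 (chr10:17184603-17184852, plus strand) carried the full element 124 bases before the start, and a separate core 172 bases before it. In Ier2 (chr19:40399123-40399372, plus strand) the element began 66 bases before the start, and in Btg2 (chr13:48087691-48087940, minus strand) 201 bases before it. Sik1 (chr20:9958647-9958896, minus strand) held a pair of cores on the opposite strand, which read CGTCA here, and no full element.
Dusp1: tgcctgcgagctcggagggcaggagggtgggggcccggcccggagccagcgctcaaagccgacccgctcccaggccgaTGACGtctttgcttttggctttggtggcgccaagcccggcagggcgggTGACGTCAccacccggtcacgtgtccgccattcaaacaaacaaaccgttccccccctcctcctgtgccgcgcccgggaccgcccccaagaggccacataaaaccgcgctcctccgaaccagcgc
Ier2: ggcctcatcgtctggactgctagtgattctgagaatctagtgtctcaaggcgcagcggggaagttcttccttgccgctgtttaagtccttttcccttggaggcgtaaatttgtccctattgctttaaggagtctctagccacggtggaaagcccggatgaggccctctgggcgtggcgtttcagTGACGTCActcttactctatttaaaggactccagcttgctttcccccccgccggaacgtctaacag
Btg2: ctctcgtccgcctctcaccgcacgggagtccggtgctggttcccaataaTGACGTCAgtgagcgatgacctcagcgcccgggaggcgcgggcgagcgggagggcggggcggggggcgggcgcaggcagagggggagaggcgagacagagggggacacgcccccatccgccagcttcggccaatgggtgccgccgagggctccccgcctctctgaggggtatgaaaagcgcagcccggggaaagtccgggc
Sik1: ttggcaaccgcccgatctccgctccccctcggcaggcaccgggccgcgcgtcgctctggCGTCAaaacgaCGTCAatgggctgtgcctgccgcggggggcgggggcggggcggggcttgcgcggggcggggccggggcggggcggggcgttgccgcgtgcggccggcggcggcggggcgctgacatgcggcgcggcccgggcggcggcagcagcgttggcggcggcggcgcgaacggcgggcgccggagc

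Libraries held 11.65 to 24.0 M counts (median 17.9 M). Levels are given as CPM, read counts relative to the library size as scaled by TMM, and can be compared between libraries for 1 gene but not between genes, since they are not divided by length. The defining markers of medium spiny neurons were present: all 15 of 15 listed genes were detected, with a summed level of 1831 to 11120 CPM. Tissue markers varied between libraries of a group. Slc17a6, the glutamate transporter of subcortical excitatory neurons, was at 20 CPM or more (by total count) in 6 libraries, which were vehicle neutral-cue 4, 7 and 8, vehicle anxiety-cue 5 and CBD anxiety-cue 2 and 7. In those 6 the medium spiny neuron markers summed to 1831 to 3643 CPM, against 5877 to 11120 CPM in the other 26. CBD neutral-cue library 6 stood apart in the 10 cortical neuron markers, with a sum of 1261 CPM against 155 CPM or less in the other libraries. Results below are given with all 32 libraries, and the main ones also with the 25 left without these 7. The 25 still held CBD neutral-cue library 7 and CBD anxiety-cue library 3, where the cortical marker Slc17a7 was at 61.9 and 58.9 CPM. Slc17a7 was at 938 CPM in CBD neutral-cue library 6 and at 22.1 CPM or less elsewhere. In bulk tissue, fewer cells of a type and less RNA per cell cannot be told apart. The labels do not say that each library is a separate rat, so the p-values speak of the spread from library to library, which may be partly technical.

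Arc varied most of the 10 within groups. With the neutral cue it spanned 12.6 to 70.2 CPM in vehicle libraries (median 42.3) and 25.8 to 153.7 CPM in CBD libraries (median 45.2). With the anxiety cue it spanned 17.8 to 97.3 CPM in vehicle libraries (median 37.0) and 17.4 to 79.2 CPM in CBD libraries (median 51.4). The 4 ranges overlapped, with the lowest library in vehicle neutral cue and the highest in CBD neutral cue. Group means were 36.3 ± 20.1, 63.3 ± 44.8, 46.6 ± 27.5 and 50.01 ± 21.4 CPM (SD, n = 8) for vehicle neutral, CBD neutral, vehicle anxiety and CBD anxiety, so each SD was a large part of its mean.

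Homer1, summed over its long and short forms because the table has 1 row per gene, spanned 48.2 to 151.8 CPM with vehicle and the neutral cue (median 97.4). It spanned 106.0 to 241.5 CPM with CBD and the neutral cue (median 151). With the anxiety cue the ranges were 54.6 to 170.1 CPM in vehicle (median 149) and 65.3 to 177.5 CPM in CBD libraries (median 122). The vehicle neutral-cue group had the lowest median and its range overlapped that of the CBD neutral-cue group. Nptx2 lay between 18.1 and 40.5 CPM in every library but 1, CBD neutral-cue library 6, which was at 122 CPM. Its group medians were 26.8 CPM (vehicle neutral), 30.9 CPM (CBD neutral), 27.6 CPM (vehicle anxiety) and 25.8 CPM (CBD anxiety). Its CBD neutral-cue mean, 41.6 ± 33.03 CPM (SD, n = 8), therefore sat above the range of every other library.

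Npas4, an activity-dependent transcription factor largely restricted to neurons, ran from 4.38 to 14.9 CPM (median 7.91) with vehicle and the neutral cue and from 3.31 to 28.05 CPM (median 11.3) with CBD and the neutral cue. The anxiety-cue ranges were 4.39 to 20.6 CPM in vehicle (median 8.48) and 4.46 to 28.3 CPM in CBD libraries (median 9.67). Low libraries were found in all 4 groups, and the 2 highest libraries had both received CBD, with different cues. Klf4, the other transcription factor, had the narrowest span of the 10, from 4.66 to 10.4 CPM over all libraries. Its group medians were 7.50 CPM (vehicle neutral), 6.19 CPM (CBD neutral), 7.35 CPM (vehicle anxiety) and 7.76 CPM (CBD anxiety).

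Of the phosphatases, Dusp1, which acts on MAP kinases in the nucleus, had medians of 22.7, 22.2, 22.3 and 24.6 CPM in vehicle neutral, CBD neutral, vehicle anxiety and CBD anxiety libraries, within a span of 15.3 to 46.6 CPM. Dusp6, which acts on ERK in the cytoplasm, had medians of 14.1, 12.3, 10.8 and 11.4 CPM in the same order, within a span of 8.80 to 31.6 CPM. The vehicle neutral-cue group thus had the highest median of Dusp6, while it had the lowest of Homer1 and Npas4. Sik1 spanned 5.71 to 13.1 CPM, Btg2 3.97 to 12.3 CPM and Ier2 2.49 to 8.41 CPM. Their group medians lay between 7.60 and 9.20 CPM for Sik1, 5.62 and 6.42 CPM for Btg2, and 3.45 and 4.28 CPM for Ier2. Over the 10 genes and every pair of groups, 0 of 60 pairs of ranges failed to overlap. The like share over all tested genes was not counted, so this does not set the 10 apart.

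**Figure D1:**
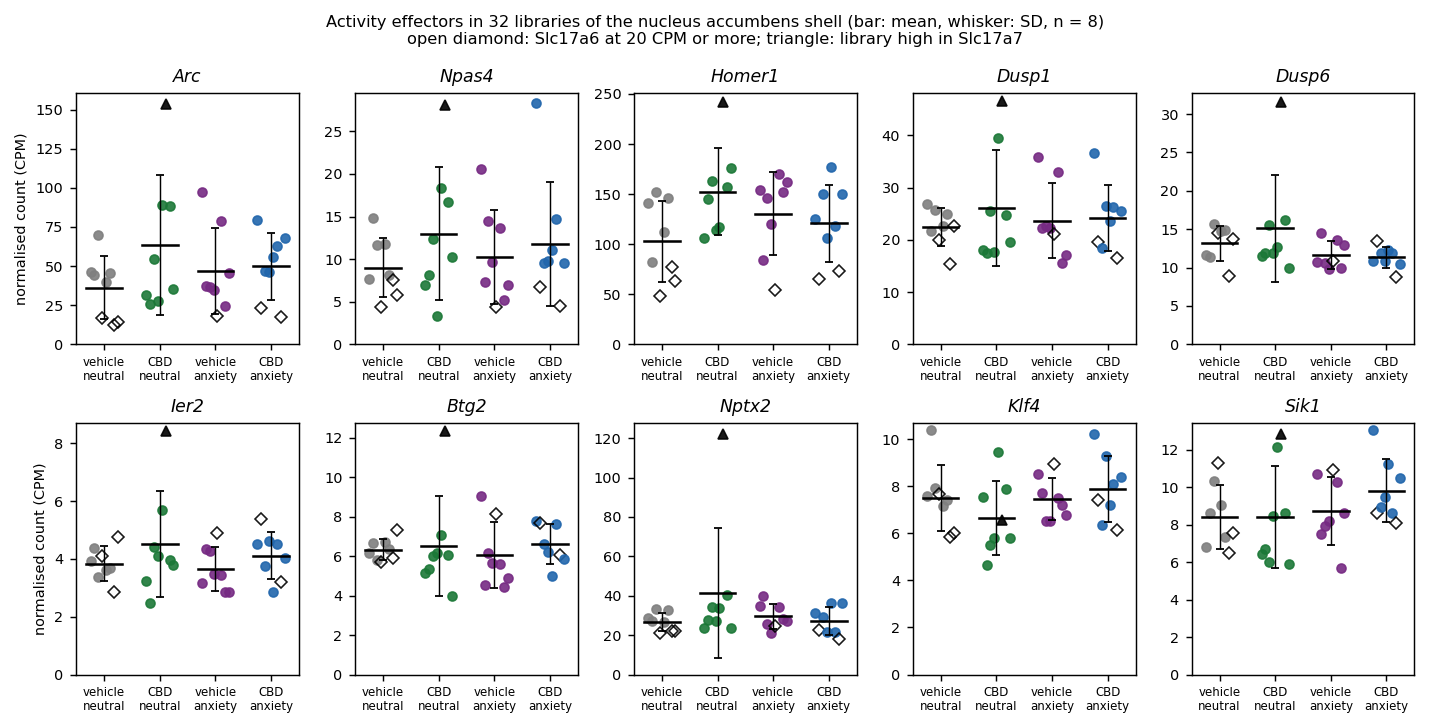
Normalised counts (CPM, linear axes from 0) of the 10 genes by group, 1 point per library, with the mean as a bar and the SD as a whisker (n = 8). Open diamonds, the 6 libraries with Slc17a6 at 20 CPM or more by total count, sit low for Arc (12.6 to 22.9 CPM) and Homer1. The black triangle, CBD neutral-cue library 6, is highest for 7 genes.

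The comparisons were read from 1 edgeR quasi-likelihood fit over all 32 libraries. A log2 fold change below is the log2 ratio of the group means fitted to the counts, or a contrast of such ratios. It is not the difference of mean log2 levels, and 1 high library can weigh more on it. A gene was called where its Benjamini-Hochberg adjusted p over the 17059 genes was below 0.05. Over the 7 comparisons and 10 genes, 0 of 70 tests were called and 6 had an unadjusted p below 0.05. DESeq2 and voom with library quality weights called 0 of the 10 genes in each comparison as well.

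The first comparison set the anxiety cue against the neutral cue in the absence of drug, in vehicle libraries. Here 0 of the 10 genes and 0% of all genes were called by edgeR. At an unadjusted p below 0.05 were 0 of the 10 and 2175 of all genes (12.7%). Arc had a log2 fold change of 0.36 (SE 0.40) and Homer1 of 0.34 (SE 0.24), Dusp6 of -0.18 (SE 0.17), and Klf4 was nearest to 0 at -0.01 (SE 0.13). Of the 10 genes 6 were above 0, with a median of 0.06, where 50.1% of all genes were above 0. Their adjusted p ran from 0.496 to 0.980. The vehicle neutral-cue group held 3 of the 6 libraries high in Slc17a6 and the vehicle anxiety-cue group 1, and without the 7 libraries Arc was at 0.03 (SE 0.32) and Homer1 at 0.14 (SE 0.17). From the list of 57 other activity-regulated genes, all tested, 0 were called and 30 were above 0 (median 0.02). Without the 7 libraries 4 of the 10 genes (median -0.02) and 21 of the 56 list genes then tested (median -0.05) were above 0, Bdnf having failed the filter. The 3 with the smallest p were Per1, a clock gene also induced by activity, at 0.33 (SE 0.14), Atf3, a stress-induced transcription factor, at -1.52 (SE 0.67), and Klf6 at -0.41 (SE 0.20), with edgeR adjusted p of 0.376, 0.378 and 0.396.

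With CBD on board, anxiety against neutral cue, 0 of the 10 genes and 0% of all genes were called by edgeR. Here 2 of the 10, Dusp6 and Nptx2, and 672 of all genes (3.94%) had an unadjusted p below 0.05. Nptx2 was at a log2 fold change of -0.61 (SE 0.25) and Dusp6 at -0.42 (SE 0.17), with an adjusted p of 0.995 for each. Both estimates turned on CBD neutral-cue library 6: without it Nptx2 was at -0.15 and Dusp6 at -0.17. Arc and Homer1 were both at -0.34 (SE 0.40 and 0.24), and Klf4 and Sik1 at 0.25 (SE 0.13) and 0.23 (SE 0.16). Only 3 of the 10 were above 0 (median -0.13), against 48.8% of all genes. Without only the 6 libraries high in Slc17a6, 4 of the 10 were above 0 (median -0.04), and Arc was at -0.08. Without the 7 libraries 7 of the 10 were above 0 (median 0.19), and Arc was at 0.26 (SE 0.30). Sik1, the kinase that restrains CREB coactivators, was at 0.41 (SE 0.16) in those 25 libraries, with an unadjusted edgeR p of 0.0159 and an adjusted p of 0.9999. Of the 57 other activity genes 0 were called and 20 were above 0 (median -0.09). Above 0 were 28 of 57 (median -0.01) without only the 6 libraries, and 43 of 56 (median 0.12) without the 7. With tissue composition covariates 5 of the 10 (median 0.05) and 32 of the 57 (median 0.02) were above 0. Nr4a2, an orphan nuclear receptor, was at -1.51 (SE 0.58), Bdnf, the neurotrophin, at -2.44 (SE 0.97), and Scg2, a granin, at 0.23 (SE 0.09), all with an adjusted p of 0.995. The first 2 estimates came from CBD neutral-cue library 6, without which Nr4a2 was at 0.24 (SE 0.35) and Bdnf at 0.63 (SE 0.79), with both signs turned.

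CBD against vehicle with the neutral cue gave, of the 4 direct comparisons, the largest estimates for Arc, Homer1 and Nptx2. Again 0 of the 10 genes and 0% of all genes were called by edgeR, while DESeq2 called 382 genes and voom 1, none of the 10 among them. At an unadjusted p below 0.05 were 2 of the 10 (Nptx2 and Homer1) and 3852 of all genes (22.6%). Arc was at a log2 fold change of 0.80 (SE 0.40, edgeR adjusted p = 0.231), Nptx2 at 0.63 (SE 0.25, adjusted p = 0.151), Homer1 at 0.57 (SE 0.24, adjusted p = 0.174) and Npas4 at 0.53 (SE 0.37, adjusted p = 0.377). For Homer1 an exact permutation test of the 8 against 8 log2 levels, 2-sided, gave p = 0.0277, the 1 value below 0.05 among 40 such tests made over the 4 direct comparisons. The remaining genes lay between -0.18 (Klf4) and 0.23 (Ier2). Of the 10 genes 8 were above 0 (median 0.22), against 50.9% of all genes. This comparison set 3 vehicle libraries high in Slc17a6 against 0 in the CBD group, which held the library high in cortical markers. Drd1, the D1 dopamine receptor and a marker of the direct pathway, was at 229 ± 114 CPM in the vehicle and 339 ± 47.4 CPM in the CBD group (SD, n = 8). Without only the 6 libraries high in Slc17a6 Arc was at 0.35, Nptx2 at 0.48, Homer1 at 0.26 and Npas4 at 0.26, and 8 of the 10 were above 0. Without the 7 libraries the estimates were 0.02 (SE 0.32) for Arc, 0.01 (SE 0.16) for Nptx2, 0.13 (SE 0.17) for Homer1 and -0.01 (SE 0.36) for Npas4, and 4 of the 10 were above 0. Among the 57 other activity genes 39 were above 0 (median 0.16), 12 had an unadjusted p below 0.05 and 0 were called. Above 0 were 36 of 57 (median 0.05) without only the 6 libraries, and 25 of 56 (median -0.02) without the 7. Klf10 was at 0.68 (SE 0.25), Fosl2 at 0.69 (SE 0.26) and Egr1 at 0.69 (SE 0.26), with edgeR adjusted p of 0.137, 0.140 and 0.141. All 3 encode transcription factors. In the 25 libraries they were at 0.10 (SE 0.16), 0.21 (SE 0.20) and 0.16 (SE 0.16).

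CBD against vehicle with the anxiety cue asked whether the drug altered these genes in the presence of the conditioned odour. By edgeR 0 of the 10 genes and 0% of all genes were called, with 0 of the 10 and 270 of all genes (1.58%) at an unadjusted p below 0.05. Estimates ran from -0.12 for Nptx2 (SE 0.25) to 0.20 for Npas4 (SE 0.36), with Arc at 0.10 (SE 0.40), Sik1 at 0.17 (SE 0.16) and Ier2 at 0.17 (SE 0.18). The 95% interval for Arc, -0.72 to 0.92, leaves sizeable differences in both directions undetected at this spread. Here 7 of the 10 were above 0 (median 0.09), against 48.3% of all genes. Without the 7 libraries Arc was at 0.25 (SE 0.30), Npas4 at 0.32 (SE 0.34), Sik1 at 0.30 (SE 0.16) and Nptx2 at -0.03 (SE 0.15), with 7 of the 10 above 0 (median 0.19). With tissue composition covariates 5 of the 10 were above 0 (median -0.004). Among the 57 other activity genes 44 were above 0 (median 0.07) and 0 were called, and 47 of 56 (median 0.14) were above 0 without the 7 libraries. With tissue composition covariates 26 of the 57 were above 0 (median -0.01). Scg2 was at 0.30 (SE 0.09), Dusp4, a nuclear MAP kinase phosphatase, at 0.33 (SE 0.15), and Atf3 at 1.39 (SE 0.67), with an edgeR adjusted p of 0.9999 for each.

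The interaction, the cue effect with CBD minus the cue effect with vehicle, tested whether the drug altered the response to the cue. Of the 10 genes 0 were called, as were 0% of all genes (by DESeq2, 14 genes and none of the 10). An unadjusted p below 0.05 was found for 1 of the 10 and for 2353 of all genes (13.8%). Nptx2 was at -0.75 (SE 0.35, edgeR adjusted p = 0.346), Arc at -0.70 (SE 0.57) and Homer1 at -0.68 (SE 0.34, edgeR adjusted p = 0.368), while Klf4 was at 0.26 (SE 0.18). Below 0 were 7 of the 10 (median -0.21). Without only the 6 libraries high in Slc17a6 Arc was at -0.10, and 5 of the 10 were above 0 (median 0.01). Without the 7 libraries Nptx2 was at -0.04 (SE 0.22), Arc at 0.23 (SE 0.44) and Homer1 at -0.16 (SE 0.23), so the sign of Arc's estimate turned. The tally turned with it, to 8 of the 10 above 0 (median 0.22). Klf4 stood at 0.48 (SE 0.20) in those 25 libraries, with an unadjusted edgeR p of 0.0257 and an adjusted p of 0.633. Of the 57 other activity genes 23 were above 0 (median -0.14) and 0 were called. Above 0 were 31 of 57 (median 0.05) without only the 6 libraries, and 45 of 56 (median 0.16) without the 7. With tissue composition covariates 5 of the 10 (median 0.02) and 30 of the 57 (median 0.04) were above 0. Scg2 was at 0.36 (SE 0.13), Atf3 at 2.56 (SE 0.94) and Errfi1, a feedback inhibitor of the epidermal growth factor receptor, at -0.28 (SE 0.12), with edgeR adjusted p of 0.321, 0.321 and 0.339. The cue effect in vehicle, the CBD effect with the neutral cue and the interaction share the vehicle neutral-cue libraries, so their estimates are not independent.

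Averaged over drug, the anxiety cue gave 0 of the 10 genes called and 0% of all genes, with 1 of the 10 (Dusp6) and 619 of all genes (3.63%) at an unadjusted p below 0.05. Dusp6 was at -0.30 (SE 0.12, edgeR adjusted p = 0.9997), and at -0.20 (SE 0.08) without the 7 libraries. Arc was at 0.01 (SE 0.28), Homer1 at 0.00 (SE 0.17) and Npas4 at 0.03 (SE 0.26), with 5 of the 10 above 0. Above 0 were 3 of the 10 without only the 6 libraries high in Slc17a6, and 7 of the 10 without the 7 libraries. Averaged over cue, CBD gave 0 of the 10 genes called and 0% of all genes by edgeR (8 genes by DESeq2, none of the 10), with 0 of the 10 and 1240 of all genes (7.27%) at an unadjusted p below 0.05. Arc was at 0.45 (SE 0.28, edgeR adjusted p = 0.703), Npas4 at 0.36 (SE 0.26) and Klf4, the 1 gene below 0, at -0.05 (SE 0.09). Of the 10 genes 9 were above 0 (median 0.16), against 50.2% of all genes, and 7 of the 10 (median 0.04) without the 7 libraries. With tissue composition covariates this turned to 3 of the 10 (median -0.07) and 23 of the 57 activity list genes (median -0.02) for CBD. In the activity list 29 of 57 were above 0 for the cue and 48 of 57 for CBD, with 0 called in both, and 35 and 37 of 56 without the 7 libraries. The smallest p for the cue belonged to Bdnf at -2.04 (SE 0.70), Nr4a2 at -0.97 (SE 0.42) and Rasd1, a Ras-like GTPase, at -0.16 (SE 0.07), and without CBD neutral-cue library 6 Bdnf was at -0.51 (SE 0.54) and Nr4a2 at -0.10 (SE 0.24). For CBD it belonged to Fosl2 at 0.45 (SE 0.18), Csrnp1 at 0.30 (SE 0.13) and Klf10 at 0.37 (SE 0.18), which were at 0.29 (SE 0.14), 0.22 (SE 0.13) and 0.15 (SE 0.11) without the 7 libraries.

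**Figure D2:**
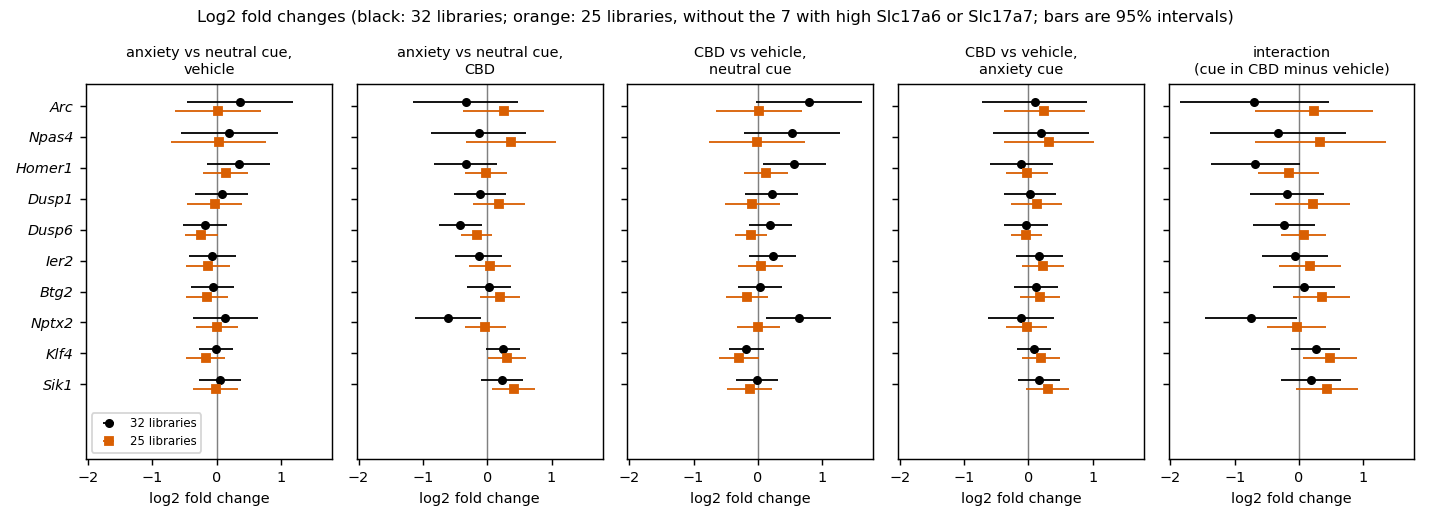
Log2 fold changes of the 10 genes in 5 comparisons, with 95% intervals, from all 32 libraries (black circles) and from 25 libraries without the 7 high in Slc17a6 or Slc17a7 (orange squares). The black estimates for CBD with the neutral cue reach 0.80 for Arc and 0.63 for Nptx2, and the orange ones lie at 0.02 and 0.01.

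Spread within groups was large for some of these genes and ordinary for others. The biological coefficient of variation, edgeR's estimate of spread between libraries of a group beyond counting error, was 0.542 for Arc and 0.496 for Npas4, above 96.3% and 95.3% of all genes tested. It was 0.340 for Nptx2, 0.332 for Homer1 and 0.274 for Dusp1, and 0.170 for Klf4, close to the median gene (0.164). Set beside genes of a like level (within 0.5 on the log2 CPM scale), Arc was above 99.9% of 2694 genes and Klf4 above 43.9% of 1607. From the lowest to the highest library Arc spanned 12.2-fold, Npas4 8.54-fold, Nptx2 6.73-fold, Homer1 5.01-fold and Klf4 2.23-fold. The smallest raw count of any member was 34 reads (Ier2), and Arc had at least 151. The 4 groups accounted for 10.2% of the variance of Arc's log2 level, 17.2% for Homer1, 16.3% for Dusp6 and 1.78% for Dusp1, where the median over all genes was 10.5%.

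Part of that spread went with the tissue markers. In the 6 libraries high in Slc17a6 Arc was at 12.6 to 22.9 CPM (median 17.2), and in the other 26 at 24.3 to 153.7 CPM (median 46.2), with no overlap. Homer1 was at 48.2 to 77.2 CPM in the 6 and 82.3 to 241.5 CPM in the 26, again with no overlap, and Drd1 at 56.6 to 179 CPM against 255 to 475 CPM. The share of all tested genes that separated in this way was not counted, so it cannot be read as particular to Arc and Homer1. Npas4 (medians of 5.13 and 10.6 CPM) and Nptx2 (22.2 and 29.0 CPM) were low in the 6 with overlap. Medians were close for Dusp6 (12.1 and 11.9 CPM), Sik1 (8.36 and 8.63 CPM) and Btg2 (6.69 and 6.10 CPM), so the 10 genes did not move together across these libraries. Oligodendrocyte markers summed to 9309 to 11872 CPM in the 6 and 3950 to 9548 CPM in the 26. CBD neutral-cue library 6, high in cortical markers, ranked 1 of 32 in 7 of the 10 genes (Arc, Homer1, Dusp1, Dusp6, Ier2, Btg2 and Nptx2), 2 of 32 in Npas4 and Sik1, and 22 of 32 in Klf4. Its Nptx2 level of 122 CPM compared with 40.5 CPM in the next library, and its Dusp6 level of 31.6 CPM with 16.2 CPM. The part of tissue composition in the levels of single libraries was not tested beyond these values and the fits that leave the libraries out.

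**Figure D3:**
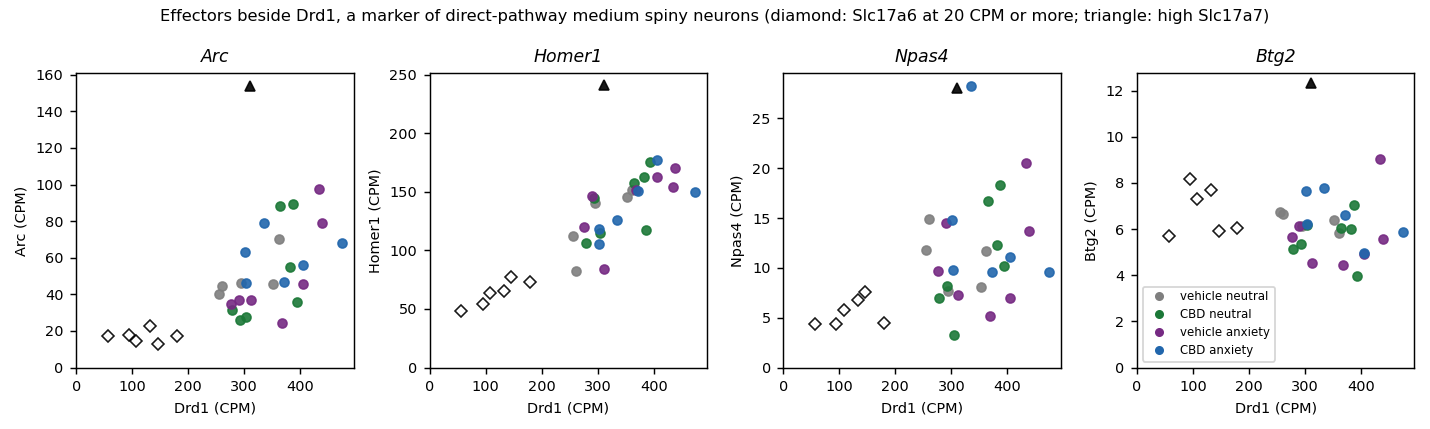
Arc, Homer1, Npas4 and Btg2 (CPM, vertical) against Drd1 (CPM, horizontal) in 32 libraries, coloured by group. Open diamonds, the 6 libraries with Slc17a6 at 20 CPM or more by total count, have Drd1 of 179 CPM or less and the lowest Arc and Homer1. Their Btg2 lies among the other libraries, and the black triangle is CBD neutral-cue library 6.

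Co-variation between the genes was measured on log2 CPM centred on group means, so that group differences did not enter. Because the 6 libraries formed a separate cluster for Drd1 and Homer1, and CBD neutral-cue library 6 stood apart in cortical markers, the 25 libraries without these 7 are given first. In these, Arc correlated with Dusp1 at Pearson r = 0.84 (Spearman rho = 0.79, permutation p = 3e-05 and 0.00013) and with Npas4 at r = 0.75 (rho = 0.66, permutation p = 0.00013 and 0.0024). It correlated with Sik1 at r = 0.70 (rho = 0.59, permutation p = 0.00057 and 0.006) and with Nptx2 at r = 0.57 (rho = 0.60, permutation p = 0.0062 and 0.005). Over the 9 relations of Arc, Benjamini-Hochberg adjustment gave p = 0.00027 for Dusp1, 0.00058 for Npas4, 0.0017 for Sik1 and 0.014 for Nptx2 (permutation tests of r). Klf4 (r = 0.56, adjusted permutation p = 0.015) and Btg2 (r = 0.54, adjusted permutation p = 0.025) passed for r and not for rho (adjusted permutation p = 0.071 and 0.093). Dusp6 (r = 0.43), Ier2 (r = 0.33) and Homer1 (r = 0.26) did not pass, with adjusted permutation p of 0.096, 0.21 and 0.24. Leaving out the 2 libraries farthest from the median of Arc gave r = 0.76 for Dusp1, 0.66 for Npas4, 0.56 for Sik1, 0.55 for Nptx2, 0.40 for Klf4 and 0.27 for Btg2 (23 libraries), so the relation with Btg2 rested on those 2. In the same 23 libraries r with Arc was 0.60 for Dusp6, higher than in the 25, 0.35 for Homer1 and 0.26 for Ier2. Over all 32 libraries Homer1 (adjusted permutation p = 6.7e-05) and Dusp6 (adjusted permutation p = 0.0044) passed for r, and also for rho. Klf4 passed for both (adjusted permutation p = 0.0065 and 0.0033), as did Dusp1, Npas4, Sik1 and Nptx2. Btg2 and Ier2 did not pass there (adjusted permutation p = 0.067 and 0.16 for r). Which genes passed thus depended on the 7 libraries.

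Homer1 was the member of all 3 pairs with r below 0 over 32 libraries, with Ier2 (-0.19), Klf4 (-0.07) and Btg2 (-0.04). In the 25 its r with Ier2 was -0.48 and with Klf4 -0.43, and its r with Arc was 0.26, against 0.72 over all 32. Arc with Npas4 (0.83 and 0.75) and Arc with Dusp1 (0.82 and 0.84) were about as strong in both. Over the 45 pairs of the 10 genes the median r was 0.51 in 32 libraries and 0.37 in 25, with 42 and 40 pairs above 0. Within the 4 groups of 8 libraries, r of Arc with Npas4 ran from 0.70 to 0.90 and with Dusp1 from 0.76 to 0.94, while r with Ier2 ran from -0.42 to 0.86.

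**Figure D4:**
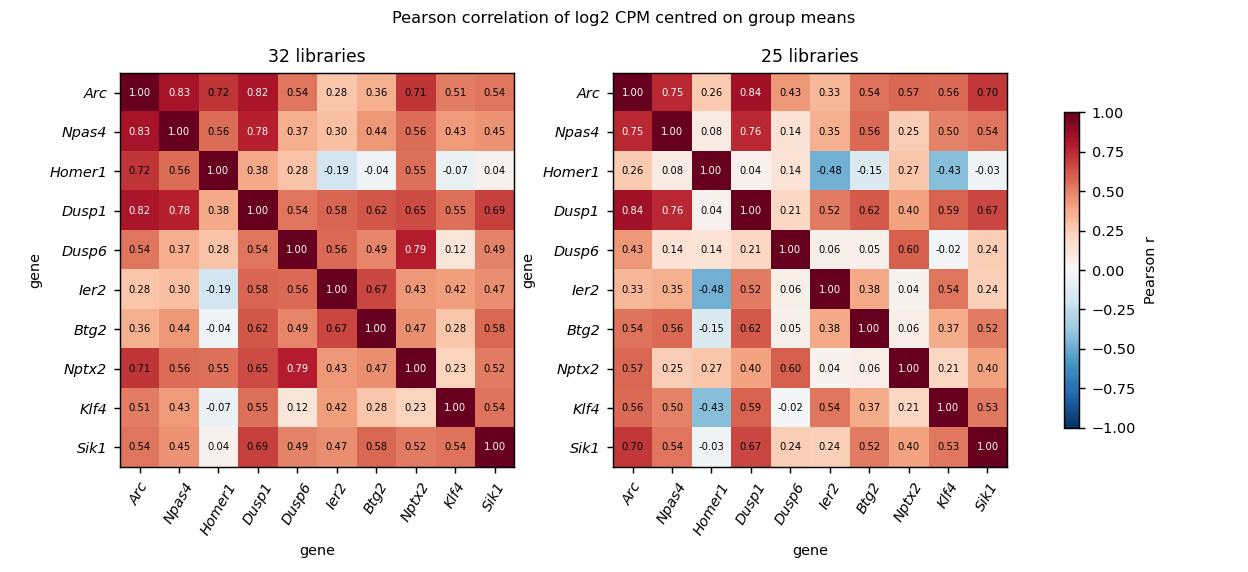
Pearson correlation of group-centred log2 CPM between the 10 genes, over 32 libraries (left) and over 25 without the 7 high in Slc17a6 or Slc17a7 (right), with red above 0 and blue below. Arc, Npas4 and Dusp1 keep high values in both panels, whereas Homer1 on the right has r of 0.26 with Arc, -0.48 with Ier2 and -0.43 with Klf4.

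Across all 17059 genes, the genes whose levels tracked each member best differed between members. Values are Pearson r of group-centred log2 CPM over 32 libraries, as a description. Arc was closest to Nr4a1 (r = 0.95), an orphan nuclear receptor of the primary response, then to Junb (0.90) and Fosl2 (0.90), both of the AP-1 transcription factor family, and over 25 libraries these were at 0.91, 0.79 and 0.82. Npas4 was closest to Arc (0.83), Gadd45g (0.80) and Dusp1 (0.78), and Dusp1 to Gadd45g (0.84), Arc (0.82) and Npas4 (0.78). Homer1 was closest to Neto1 (0.97), an auxiliary subunit of glutamate receptors, and Epha7 (0.97), an ephrin receptor, neither of which is on the activity list. Over 25 libraries they were at 0.97 and 0.93. Btg2 was closest to Fos (0.87, and 0.86 over 25 libraries), followed by Rtn4rl2 (0.71) and Bmper (0.68), and Ier2 to C1qtnf2 (0.75), Fos (0.74) and Wdr91 (0.72). Over 25 libraries Rtn4rl2, itself on the cortical marker list, and Bmper were at 0.46 and 0.42 with Btg2. C1qtnf2, Fos and Wdr91 were then at 0.63, 0.50 and 0.67 with Ier2. Sik1 was closest to Midn (0.87), which encodes midnolin and is on the activity list, Trak1 (0.76) and Dusp4 (0.76). Klf4 was closest to Rfxank (0.75), Midn (0.66) and Klhl21 (0.65). Nptx2 tracked Plekha2 (0.88), Zbtb18 (0.87) and Ier5 (0.86), and Dusp6 tracked Plekha2 (0.82), Rxfp1 (0.79) and Nptx2 (0.79). For Plekha2 the values over 25 libraries were 0.67 with Nptx2 and 0.65 with Dusp6. Zbtb18 and Ier5 were then at 0.61 and 0.78 with Nptx2, and Rxfp1 and Nptx2 at 0.63 and 0.60 with Dusp6. Fos, among the 3 genes closest to Btg2 and to Ier2, was at -0.05 (SE 0.28) for CBD with the neutral cue, where Nr4a1 was at 0.65 (SE 0.32) and Junb at 0.47 (SE 0.24), with edgeR adjusted p of 0.928, 0.227 and 0.229. These 3 are estimates over all 32 libraries, and their values without the 7 are not given here. In that comparison Arc, Klf10, Fosl2 and Egr1 were at 0.02, 0.10, 0.21 and 0.16 without the 7 libraries. The difference of Fos from Nr4a1 and Junb was not tested.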

How the data were processed

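The authors deposited whole-number read counts for each gene, unnormalised. RNA was poly(A)-selected and sequenced on an Illumina instrument, per the labels' protocols. STAR, featureCounts, DESeq2 and the builds mRatBN7.2 and Rnor_6.0 are named, with no role or version, in the submitters' processing notes. Use of strand in counting: not given in the sources used here. Total counts ran from 11.65 to 24.0 M per library.

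Groups came from the treatment label. The counts were tested with edgeR 4.0.16 (R 4.3.3): filterByExpr by group kept 17059 genes, TMM scaled the libraries, and 1 quasi-likelihood fit with 4 group means covered the 32 libraries (28 residual degrees of freedom). Adjustment was Benjamini-Hochberg over all tested genes, with a threshold of 0.05. CPM are TMM-scaled, with a prior count of 2 before logs. Correlations used 100000 permutations within groups. Scripts were tested on simulated data.

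All 10 members are named whatever their values. From a list of 57 activity-regulated genes the 3 with the smallest p are named where none passes, and for each member the 3 genes with the highest correlation, locus numbers left out (1 gene close to Homer1 is not reported here). The members and lists were chosen with earlier results of these data known. Alternatives were DESeq2 1.42.0 and its size factors within edgeR, limma 3.58.1 voom with quality weights, 2 other filters (none, and 1 CPM in 8 libraries), robust estimation, covariates for tissue composition or for Alb and Plin1, leaving out each library in turn, and leaving out libraries high in Slc17a6. Leaving out CBD neutral-cue library 6 together with these, and refitting named list genes without single libraries, was chosen after seeing the data.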

Additional observations from a re-analysis of the deposited data

Results flagged for a closer look

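Within-group outliers were looked for in the 40 sets of 8 libraries (10 genes in 4 groups) by the gap between the extreme library and its nearest neighbour, a test by which chance alone marks about 5% of sets. It marked 5 sets. Npas4 was at 28.3 CPM in CBD anxiety-cue library 1, where the next library of the group was at 14.8 CPM. CBD neutral-cue library 6 was marked for 3 genes: Dusp6 at 31.6 CPM (next 16.2 CPM), Btg2 at 12.3 CPM (next 7.06 CPM) and Nptx2 at 122 CPM (next 40.5 CPM). This is the library with the high cortical marker sum. Klf4 was at 10.4 CPM in vehicle neutral-cue library 2.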

How the results depend on the processing

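None of the 10 genes was called in any comparison under any alternative run with an adjusted p. The lowest was 0.0965 (edgeR) over 2240 values with 1 library left out. Under the other settings it was 0.114 (DESeq2) over 740 values, of which the 40 exact permutation tests carried no adjusted p. The sign of the estimate turned in 94 of the 2240 and 85 of the 740 values. Counts over all genes did move from 0. For CBD with the neutral cue they were 382 by DESeq2, 1 by voom with quality weights, 31 without the libraries high in Slc17a6 and 18 without the 7 libraries. For the cue in vehicle they were 19 and 13 without those 6 and 7 libraries, and DESeq2 gave 14 for the interaction and 8 for mean CBD. Leaving out each library in turn gave 0 to 165 genes for CBD with the neutral cue (165 without vehicle anxiety-cue library 5, 68 without vehicle anxiety-cue library 4), 0 to 10 for the interaction (10 without vehicle anxiety-cue library 5) and 0 to 61 for mean CBD (61 without vehicle anxiety-cue library 4). Vehicle anxiety-cue libraries are in neither group of CBD against vehicle with the neutral cue. They enter that test only through the filter, the scaling and the spread shared over all libraries. The cause of these moves was not tested. For CBD with the neutral cue, voom with quality weights put 4 of the 10 genes above 0 (median -0.06), tissue composition covariates 1 (median -0.05) and Alb and Plin1 covariates 10 (median 0.41). With the Alb and Plin1 covariates Arc was at 1.06. The liver transcript Alb was at 49.3 to 227 CPM in CBD neutral-cue libraries 1 to 4. In the vehicle neutral-cue group it was at 9.66 CPM or less. The fat cell transcript Plin1 was at 16.7 to 42.1 CPM in vehicle neutral-cue libraries 1 to 5. In the CBD neutral-cue group it was at 1.88 CPM or less. Both thus went partly with the drug label here, and their part was not tested beyond that fit. The cortical marker list holds Nrn1, itself raised by activity, so that covariate can take up part of such a response. No paired analysis was possible because the labels give no replicate numbers shared between groups.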
